A study of Homo sapiens with 10 samples.

Results

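The TP63 locus was described across 10 peak lists from ChIP-seq of 5 transcription factors, FOS, JUN, JUNB, NFKB1 and STAT3, in MCF10A-ER-Src cells. This established line derives from MCF-10A, a breast epithelial line, and expresses the oncoprotein v-Src joined to the part of the estrogen receptor that binds hormone, through which tamoxifen switches v-Src on. Each factor has 1 library of non-transformed cells, which received ethanol and carry 36 h in their library names, and 1 library of transformed cells, which received 1 μM 4-hydroxy-tamoxifen for 12 h. Below, before and after transformation stand for these 2 libraries and not for a time course. The times of 36 h and 12 h differ together with the treatment, so the 2 cannot be told apart. Both groups carry the ER-Src fusion, and no line without it is among the samples. There is 1 library in each group, so no difference between the states has a replicate check, no test was made, and all intervals are 95% intervals for counting error only. No interval is adjusted for the choice of sites with the highest or lowest ratio. The library names carry different replicate letters in the 2 states for JUNB and STAT3.

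The members are all peaks whose summit, the position with the most reads, lies at chr3:189300000-189650000 in hg19 coordinates. This window of 350.0 kb holds 225 of the 879550 summits that the 10 lists place on chromosomes 1 to 22 and X. TP63 runs on the plus strand from the upstream start at 189349216 to the end at 189615068, and an internal promoter lies near 189507000. In the RefSeq gene order TPRG1 comes before TP63 and P3H2 after it. RefSeq also lists TP63 transcripts that begin further upstream, so summits before the start given here cannot be called intergenic. No hg19 annotation was used here, and whether a summit lies in an exon or an intron is not given.

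TP63 encodes p63, a transcription factor of the p53 family. The upstream promoter gives the TA isoforms, which carry a transactivation domain, and the internal promoter gives the ΔN isoforms, which lack it and are the main form in basal epithelial cells, including those of the breast. FOS, JUN and JUNB are subunits of AP-1, a dimer that binds a short palindrome with TGA and TCA as its arms, whereas NFKB1 is the p50 subunit of NF-κB and STAT3 is the factor that cytokine receptors and Src activate by tyrosine phosphorylation.

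The upstream promoter is shown because none of the 10 lists places a summit within 2 kb of the upstream start of the gene. The RefSeq entry for TP63 gives the 250 bases before a start at chr3:189631139-189631388, plus strand, in GRCh38.p14. Whether that start is the same as the hg19 upstream start was not checked, since the builds differ. The sequence is printed 5′ to 3′ in lower case, with no base in capitals because no motif searched for was found in it.
TP63 promoter: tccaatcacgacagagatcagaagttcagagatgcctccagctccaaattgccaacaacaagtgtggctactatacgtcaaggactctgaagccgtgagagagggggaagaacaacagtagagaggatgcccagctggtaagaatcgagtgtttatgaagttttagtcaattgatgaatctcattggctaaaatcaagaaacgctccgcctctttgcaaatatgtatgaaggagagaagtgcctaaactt
These bases have a GC content of 44%. Neither the AP-1 motif TGANTCA nor the STAT motif TTCNNNGAA occurs in them on either strand, and over all 35116 promoters of the same kind 6.57% hold the first motif and 6.57% the second. These counts describe the letters of this window and say nothing of binding elsewhere. The peak sequences themselves are not printed, since no genome of the build of the lists was used here.

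Nearby summits of the 10 lists were joined into sites: each summit was widened by 150 bp on each side, and overlapping windows were chained. This gave 42 sites, numbered in the direction of transcription, and 9 of them hold a summit of 1 list only. A FOS, JUN or JUNB summit was listed in at least 1 state at 40 of the 42 sites. The 2 others were site 14, with NFKB1 in transformed cells, and site 23, with STAT3 in transformed cells. The share of sites with an AP-1 summit over the genome was not counted, so 40 of 42 is not shown to be particular to this locus. FOS, whose lists are the longest of each state (119754 and 164605 summits), was listed at the most sites, 34. It was listed in both states at 26 of them, in transformed cells only at 7 and in non-transformed cells only at 1. JUN was listed in both states at 16 sites, in transformed cells only at 8 and in non-transformed cells only at 3. JUNB was listed in both states at 17 sites, in transformed cells only at 8 and in non-transformed cells only at 1. STAT3 was listed in both states at 14 sites, in transformed cells only at 5 and in non-transformed cells only at 4. NFKB1 was listed in both states at 8 sites and in transformed cells only at 13. No site had NFKB1 in non-transformed cells only.

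**Figure D1:**
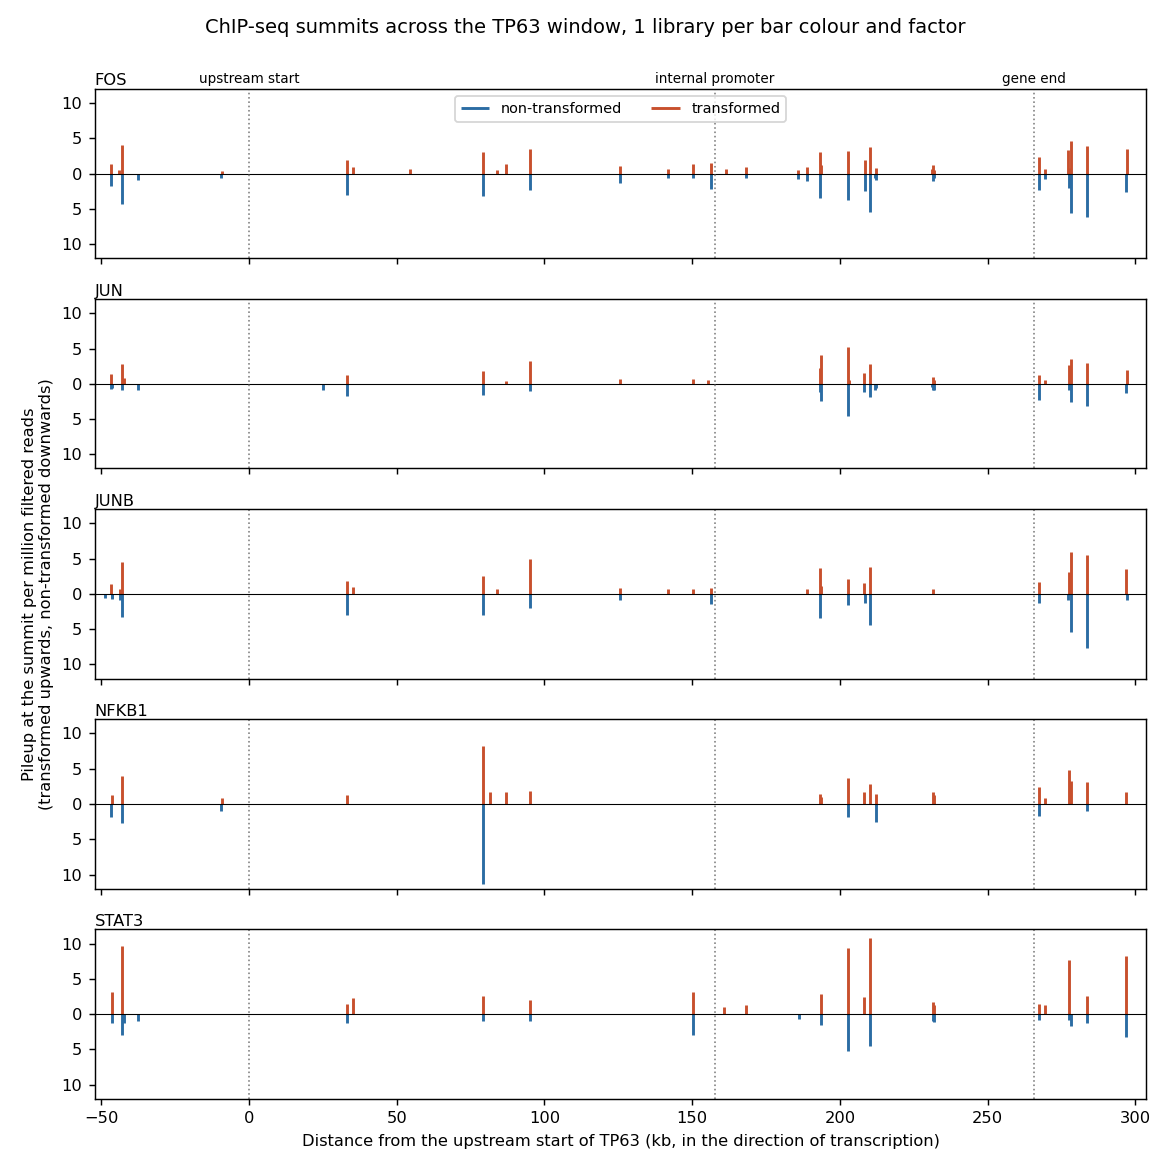
Each vertical line is a listed summit, placed by its distance in kb from the upstream start of TP63, and its length is the pileup at the summit per 1000000 filtered reads, drawn upwards for transformed and downwards for non-transformed cells in 1 panel per factor. Summits cluster before the upstream start, in the second part of the gene and after its end, none lies at the upstream start itself, and the tallest line is NFKB1 at site 13 in non-transformed cells, at 11.4 reads per 1000000.

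The summits were unevenly spread along the gene. Between the upstream start and the internal promoter there were 14 sites in 158 kb, or 8.87 per 100 kb, and between the internal promoter and the end there were 13 sites in 108 kb, or 12.0 per 100 kb. The 34.9 kb after the end held 7 sites, 20 per 100 kb, with 55 summits, and the 49.2 kb before the start held 8 sites, 16.3 per 100 kb, with 35 summits. The stretch after the internal promoter held 77 summits and the longer stretch before it 58. The widest spaces without a summit were 35.5 kb across the end of the gene, between sites 35 and 36, and 34.4 kb across the upstream start, between sites 8 and 9.

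The 3 landmarks differed in what lay beside them. The summits nearest to the upstream start were an NFKB1 summit of transformed cells 9225 bp before it, in site 8, and a JUN summit of non-transformed cells 25149 bp after it, in site 9. Site 8 was weak in every list that had it: the FOS pileup, which counts the reads, each lengthened to the fragment size, that cover the summit, was 11 reads before and 9 after transformation, and the NFKB1 pileup was 5 and 8 reads. Next to the internal promoter was site 22, 1371 bp before it at the nearest summit, at chr3:189505587-189505629. This site carried FOS and JUNB in both states and no JUN, NFKB1 or STAT3 summit in either. Its FOS pileup was 40 reads before and 33 after transformation, and its JUNB pileup was 13 in both. Per 1000000 filtered reads the JUNB signal was 0.58 times as high in transformed cells, the lowest JUNB ratio of the locus, with an interval of 0.25 to 1.36 that includes 1. On the other side of the internal promoter the first summit was STAT3 of transformed cells, 2927 bp after it, in site 23, with 9 reads. The end of the gene was followed after 1453 bp by site 36, which held a summit of all 10 lists.

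The sites ranged from those with a summit of 1 list only to those shared by all 10 lists. A summit was present in all 10 lists at 6 sites (2, 5, 13, 30, 36 and 41), or 14.3% with a Wilson interval of 6.72 to 27.8%, where 2.23% of the 248897 sites of the genome built the same way had one. All 5 factors were listed in transformed cells at 14 of the 42 sites, or 33.3% (21.0 to 48.4%), beside 14.8% over the genome. In non-transformed cells all 5 were listed at 6 sites, beside 2.41% over the genome. The sites with a summit of 1 list only made up 21.4% (11.7 to 35.9%) of the locus and 38.7% of all sites. No summit of non-transformed cells was listed at 10 sites, or 23.8% (13.5 to 38.5%), beside 34.6% over the genome. No summit of transformed cells was listed at 3 sites, or 7.14% (2.46 to 19.0%), beside 15% over the genome. These 3 sites were weak, with 5 JUNB reads at site 1, 17 FOS, 14 JUN and 10 STAT3 reads at site 7, and 15 JUN reads at site 9.

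**Figure D2:**
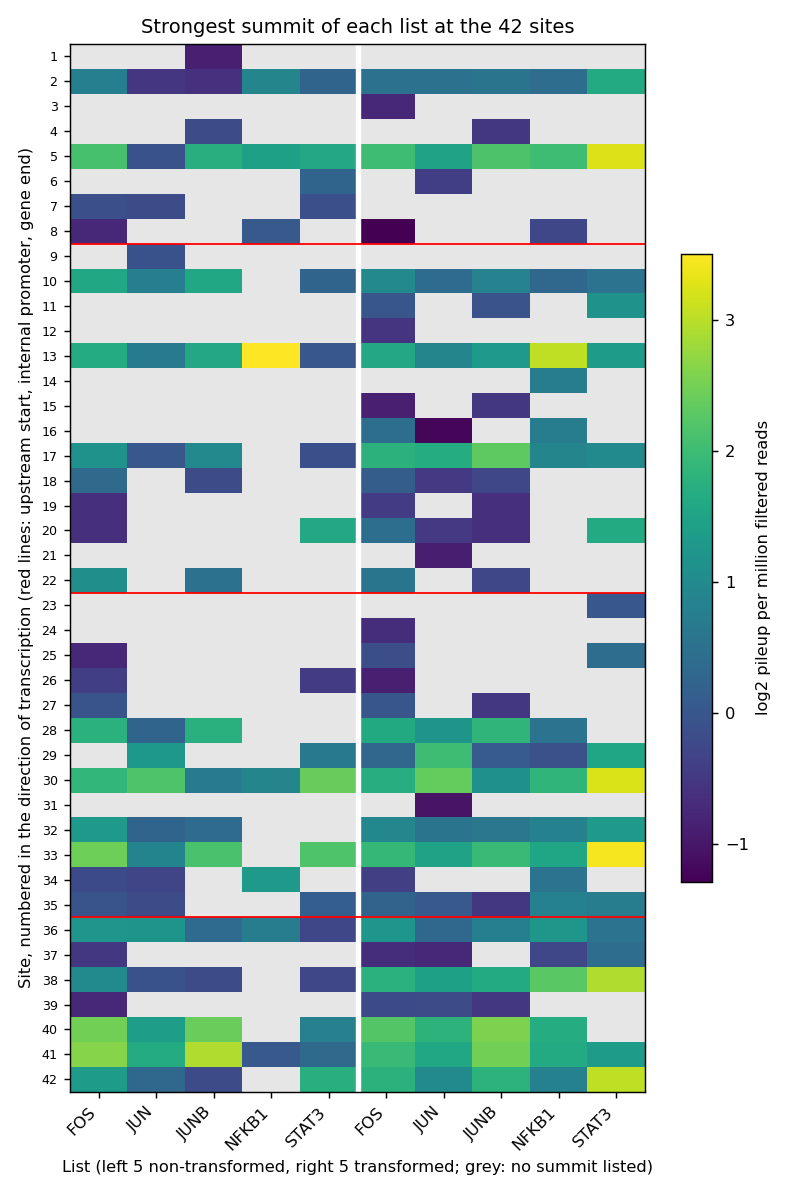
Rows are the 42 sites in the direction of transcription, with red lines at the upstream start, the internal promoter and the end of the gene, and columns are the 10 lists, with non-transformed cells on the left. Colour is the log2 pileup per 1000000 filtered reads of the strongest summit and grey marks a list with no summit there; the rows filled from side to side are the 6 sites of all 10 lists, and the brightest cells are NFKB1 at site 13 in non-transformed cells and STAT3 at sites 5, 30 and 33 in transformed cells.

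The median summit of the locus stood above the middle of its own list, though by little for NFKB1 in non-transformed cells. In transformed cells the median place of the TP63 summits in their list, ordered by significance, was the top 22.7% for JUN, the top 23.5% for NFKB1 and the top 26.7% for STAT3, and FOS with 36.4% and JUNB with 34.4% stood a little lower, where a list's own median is near 50%. In non-transformed cells FOS stood highest, at the top 28.7%, then JUN at 30.8%, STAT3 at 39.7%, JUNB at 40.3% and NFKB1 at 47.2%. The median fold enrichment over the local background of MACS was 12.5 for STAT3 in transformed cells, beside 8.07 over the whole list, and 7.20 beside 6.84 in non-transformed cells. For NFKB1 it was 9.55 beside 6.65 in transformed and 7.39 beside 7.23 in non-transformed cells. FOS went the other way between the states, with 13.5 beside 8.75 in non-transformed and 9.52 beside 8.28 in transformed cells.

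Among the 14 sites listed by all 5 factors in transformed cells, those with the smallest sum of significance ranks were sites 5, 33, 38, 30 and 41. Site 40, also strong for FOS, JUN and JUNB, was not ranked, because the STAT3 peak of transformed cells that covers it has its summit at site 38. Site 5, at chr3:189306370-189306408, lies 42.8 kb before the upstream start. Its FOS pileup was 80 reads before and 89 after transformation, and its JUN pileup was 15 and 51. The JUNB pileup was 30 and 71, the NFKB1 pileup 13 and 39, and the STAT3 pileup 33 and 86. Per 1000000 filtered reads, STAT3 was 3.18 times as high in transformed cells (2.10 to 4.90) and JUN 2.92 times (1.62 to 5.59), whereas the FOS ratio of 0.94 had an interval of 0.69 to 1.29. Among the AP-1 subunits at this site, the interval of JUN thus lay above 1 and that of FOS included 1.

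Site 33, at chr3:189559298-189559510 and 52.5 kb after the internal promoter, held the highest STAT3 fold enrichment of the locus, 53.0 in transformed cells. The STAT3 pileup was 50 reads before and 97 after transformation, a ratio of 2.36 (1.66 to 3.40) per 1000000 filtered reads. FOS went from 102 to 83 reads, and its ratio of 0.69 had an interval of 0.51 to 0.93. JUN had 29 and 51 reads and JUNB 40 and 61, with both intervals including 1. NFKB1 was listed in transformed cells only, with 28 reads.

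Site 38, at chr3:189626590-189626773 and 11.5 kb after the end of the gene, had the highest STAT3 ratio. All 4 factors listed in both states there had an interval above 1. STAT3 went from 9 to 69 reads, a ratio of 9.34 (4.65 to 21.3). JUNB had 8 and 49 reads, a ratio of 3.57 (1.68 to 8.73), and JUN 15 and 50, a ratio of 2.86 (1.58 to 5.49). FOS had 37 and 75 reads, a ratio of 1.71 (1.14 to 2.61). NFKB1 was listed in transformed cells only, with 47 reads, the highest pileup among its sites of that kind.

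Site 30, at chr3:189551913-189552084, was the JUN site of the locus. Its JUN summit had 72 reads before and 96 after transformation, and it ranked 40 of 81444 and 41 of 127335 summits in the 2 lists. The JUN ratio of 1.15 had an interval of 0.84 to 1.58. FOS had 69 and 72 reads, JUNB 15 and 34, and NFKB1 9 and 35. STAT3 had 57 and 84 reads, with a ratio of 1.80 (1.27 to 2.56), and its 57 reads gave the highest STAT3 fold enrichment in non-transformed cells, 29.8.

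Site 41, at chr3:189632754-189632808 and 17.7 kb after the end, was the strongest FOS and JUNB site of non-transformed cells. FOS had 115 reads before and 86 after transformation, and its ratio of 0.63 (0.47 to 0.84) was the lowest FOS ratio of the locus. JUNB had 70 and 88 reads, a ratio of 0.73 (0.53 to 1.02), and JUN had 50 and 55. NFKB1 went from 5 to 30 reads, its highest ratio here, 3 (1.15 to 9.90). STAT3 had 14 and 23 reads. The FOS and NFKB1 intervals thus lay on opposite sides of 1 at the same site, where both ratios are extremes of the locus. The 5 NFKB1 reads stood near the bottom of the list of non-transformed cells, at the top 99.0%.

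Among the other sites of all 10 lists, site 13, at chr3:189428535-189428611 and 79.3 kb after the upstream start, was the NFKB1 site of the locus. NFKB1 had 55 reads before and 80 after transformation, with fold enrichments of 41.4 and 44.0, and it ranked 147 and 247 in its lists. Per 1000000 filtered reads the values were 11.4 and 8.27, a ratio of 0.73 (0.51 to 1.04), so the summit was high in both states. FOS had 59 and 67 reads there, JUN 25 and 34, and JUNB 28 and 39. STAT3 had 11 and 23, a ratio of 2.55 (1.19 to 5.79). Site 36, at chr3:189616521-189616560, held the lowest JUN ratio, from 36 to 23 reads, or 0.55 (0.31 to 0.95). Its FOS pileup was 43 and 52, its JUNB pileup 12 and 27, its NFKB1 pileup 8 and 23 and its STAT3 pileup 9 and 13. At site 2, at chr3:189302543-189302959, STAT3 had 13 and 28 reads, a ratio of 2.63 (1.32 to 5.52). FOS had 32 and 31 reads there, JUN 11 and 26, JUNB 6 and 23, and NFKB1 9 and 13.

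FOS differed little between the states over the locus as a whole. Among the 27 pairs of FOS summits that the 2 states shared, 10 had a ratio above 1 and 17 below, and the median was 0.91, beside 0.95 over all pairs of the genome. Counted by site, 3 of 26 intervals lay above 1 and 2 below. For no factor were the shares of pairs or of intervals above or below 1 counted over the genome. A ratio of at least 2 was found in 1 of the 27 pairs (3.70%, 0.66 to 18.3%), beside 8.55% of all pairs, and a ratio of at most 0.5 in 0 of 27 (0 to 12.5%), beside 6%. On the scale of MACS fold enrichment the median of the FOS pairs was 0.90, beside 1.04 over the genome, so the distance from the genome depends on the scale. The highest FOS ratio was at site 20, at chr3:189499379-189499463, from 12 to 30 reads, or 2.11 (1.05 to 4.52). The strongest FOS summit of transformed cells was at site 40, at chr3:189627592-189627619, with 104 reads before and 103 after transformation.

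Sites 17 and 38 were those where the intervals of JUN and JUNB both lay above 1. The 17 JUN pairs had a median ratio of 1.36, beside 1.29 over the genome, with 13 above 1. The 17 JUNB pairs had a median of 1.11, beside 0.96, with 10 above 1. By site, 5 of 16 JUN intervals lay above 1 and 1 below, and 3 of 17 JUNB intervals lay above 1 and none below. The genome median of JUN itself was above 1, and no such count was made over the genome. A ratio of at least 2 was found in 4 of 17 JUN pairs (23.5%, 9.56 to 47.3%), beside 14.8% of all JUN pairs, and in 4 of 17 JUNB pairs, beside 7.81% of all JUNB pairs. No pair of either had a ratio of at most 0.5 (0 of 17, 0 to 18.4%), where 0.862% of JUN pairs and 7.05% of JUNB pairs of the genome had one. On the scale of MACS fold enrichment the JUN median was 1.37, beside 1.40 over the genome, and the JUNB median was 1.30, beside 1.27. The standing of JUN against the genome thus depends on the scale, and JUNB was nearly level with the genome on this one. The highest JUN ratio was at site 17, at chr3:189444251-189444302, from 16 to 59 reads, or 3.17 (1.80 to 5.90). At that site JUNB went from 18 to 78 reads, a ratio of 2.53 (1.5 to 4.48), and FOS from 42 to 76, a ratio of 1.53 (1.03 to 2.28). NFKB1 was listed there in transformed cells only, with 18 reads, and STAT3 had 10 and 18. Site 42, at chr3:189646184-189646251, held the highest JUNB ratio, from 8 to 55 reads, or 4.01 (1.90 to 9.74), and STAT3 went there from 36 to 74, a ratio of 2.51 (1.66 to 3.84). FOS had 48 and 76 reads at site 42, a ratio of 1.34 with an interval of 0.92 to 1.96.

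**Figure D3:**
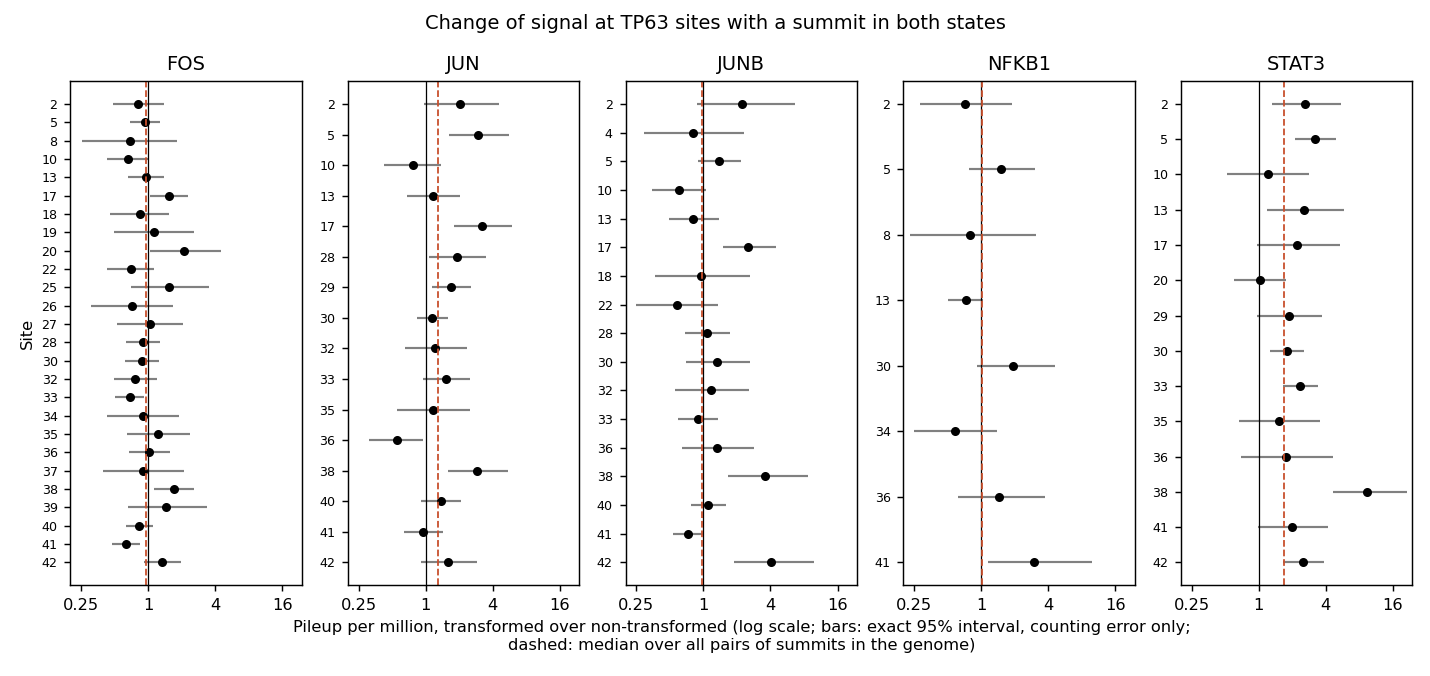
Each point is the pileup per 1000000 filtered reads of transformed cells over that of non-transformed cells at a site listed in both states, on a log scale, with its exact 95% interval for counting error and 1 panel per factor. The dashed line is the median over all pairs of the genome; all 14 STAT3 points lie above 1, FOS points lie on both sides of it, and site 38 stands farthest to the right for STAT3.

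JUN and JUNB stood far apart in their own lists at a few sites. How alike they ranked over all shared sites was not measured. At site 30 JUN stood in the top 0.049% of its list in non-transformed cells and JUNB in the top 33.3%. In transformed cells JUN was in the top 0.032% and JUNB in the top 20.7%. Site 29, at chr3:189542902-189542942, showed the same gap: JUN had 38 reads before and 75 after transformation, in the top 2.24% and 0.35%, whereas JUNB was listed in transformed cells only, with 17 reads. Its neighbour, site 28, at chr3:189542547-189542574, had more JUNB, with 31 and 57 reads, and less JUN, with 19 and 42. Sites 28 and 29 are 0.33 kb apart, and the STAT3 peaks with their summit at site 29, of 17 and 26 reads, also cover site 28. At sites 40 and 41 both subunits stood high: at site 40 JUNB had 49 and 93 reads and JUN 41 and 65, and at site 41 both were in the top 0.49% of their lists in non-transformed cells. Sites 29 and 28 were singled out after their values were seen.

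**Figure D4:**
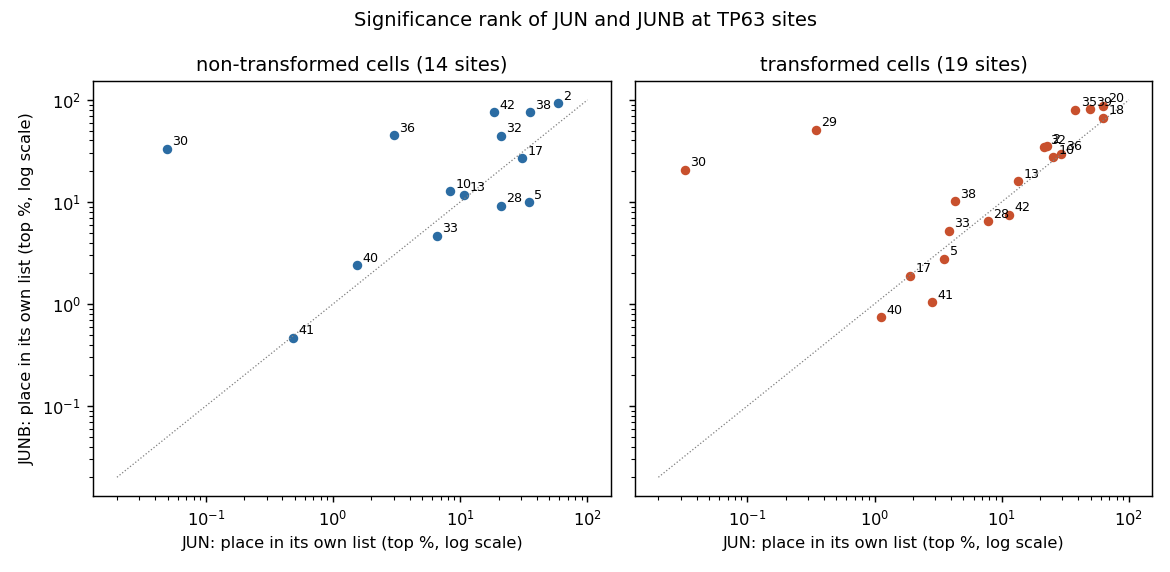
Each point is a TP63 site with a JUN and a JUNB summit, 14 in non-transformed and 19 in transformed cells, placed by the standing of each summit in its own list (top percent by significance, log scales, smaller is stronger). Most points lie near the dotted line of equal standing. Site 30 in both panels, site 29 in transformed cells and site 36 in non-transformed cells lie far on the JUN side.

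NFKB1 had few summits before transformation. Its non-transformed library has 4837474 filtered reads, the fewest of the 10, and its transformed library 9674390, and the lowest pileup listed in the window was 5 and 8 reads. What part this depth has in the numbers was not tested. The list of non-transformed cells placed 8 summits in the window and that of transformed cells 22. All 8 were kept: 0 of 8 lacked a summit of transformed cells (0 to 32.4%), beside 10.7% of the whole list. Of the 22 summits, 14 had no partner in non-transformed cells, or 63.6% (43.0 to 80.3%), beside 83.8% of the whole list. The strongest of these were site 38 with 47 reads, site 40 with 31 and site 33 with 28. An AP-1 summit of non-transformed cells lay at 12 of the 14 (85.7%, 60.1 to 96.0%), beside 73.5% of all such NFKB1 summits. The 8 pairs had a median ratio of 1.12, beside 1.03 over the genome, with 4 on each side of 1. On the scale of MACS fold enrichment 7 of the 8 were above 1, and the median was 1.53, beside 1.64 over the genome, so both the tally and the standing against the genome depend on the scale. The lowest was site 34, at chr3:189561224-189561623, with 12 and 14 reads and a ratio of 0.58 (0.25 to 1.38). A ratio of at least 2 was found in 1 of 8 pairs (12.5%, 2.24 to 47.1%), beside 9.3% of all pairs, and a ratio of at most 0.5 in none of the 8, beside 6.15%.

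STAT3 had the highest median ratio of the 5 factors. All 15 pairs had a ratio above 1 per 1000000 filtered reads, and the median was 2, beside 1.69 over all pairs of the genome. The share of genome pairs above 1 was not counted, so the tally of 15 is not shown to be particular to TP63. STAT3 was sequenced less deeply after transformation, with 8967267 filtered reads against 10929003 before it, and MACS extended its reads to 119 bp and those of the other to 150 bp. On the scale of MACS fold enrichment 13 of the 15 pairs were above 1, and the median was 1.67, beside 1.54 over the genome. A ratio of at least 2 was found in 8 of the 15 pairs (53.3%, 30.1 to 75.2%), beside 38.8% of all pairs, and a ratio of at most 0.5 in 0 of 15 (0 to 20.4%), beside 1.03%. By site, 7 of 14 intervals lay above 1, a count that was not made over the genome, whose median was itself above 1. The lowest ratio was at site 20, before the internal promoter by 7.59 kb, where STAT3 went from 33 to 28 reads, or 1.03 (0.60 to 1.76), and on the fold enrichment scale this ratio was 0.90. The FOS ratio there was the highest, as given above, and JUN and JUNB were listed in transformed cells only, with 13 and 10 reads.

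Few STAT3 summits were added at TP63. Of the 20 STAT3 summits of transformed cells, 5 had no partner in non-transformed cells, or 25% (11.2 to 46.9%), beside 61.6% of the whole list. The strongest were site 32, at chr3:189557475-189557655, with 22 reads, site 11, at chr3:189384512-189384540, with 20, and site 25, at chr3:189517409-189517435, with 12. At site 32 all 3 AP-1 subunits were listed in non-transformed cells, with FOS at 46, JUN at 19 and JUNB at 12 reads. Site 11 had no summit in any list of non-transformed cells, and in transformed cells FOS had 22 and JUNB 15 reads. An AP-1 summit of non-transformed cells lay at 3 of the 5 (60.0%, 23.1 to 88.2%), beside 62.8% of all such STAT3 summits. Among the 19 STAT3 summits of non-transformed cells, 4 had no partner in transformed cells, or 21.1% (8.51 to 43.3%), beside 29.1% of the whole list. Of these, sites 6 and 40 lie under a STAT3 peak of transformed cells whose summit is at a neighbouring site, so they are not places without STAT3. The other two, sites 7 and 26, had 10 and 8 STAT3 reads in non-transformed cells.

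The AP-1 lists also gained few summits, and most of these were below the median pileup of their list in the window. The share below the median was not counted over the whole lists, so this is not shown to be particular to the locus. FOS had 29 summits in non-transformed and 35 in transformed cells, and 7 of the 35 had no partner, or 20% (10.0 to 35.9%), beside 39.3% of the whole list. JUN had 23 and 25 summits, with 8 of the 25 new, or 32.0% (17.2 to 51.6%), beside 49.3%. JUNB had 19 and 25, also with 8 of the 25 new, beside 44.8%. The 8 JUN summits of this kind had pileups of 8 to 16 reads, beside a window median of 26, and the 8 JUNB summits had 10 to 17, beside 24. The 7 FOS summits had 12 to 30 reads, beside 27, and 2 of them were not below that median, site 16 with 30 reads and site 29 with 27. Site 29 lies under a FOS peak of non-transformed cells whose summit is at a neighbouring site, so it is not a place without FOS before transformation. Counted with whole peaks, 6 of the 35 FOS summits had no partner. In the other direction, 2 of 29 FOS summits of non-transformed cells had no partner (6.90%, 1.91 to 22%), beside 17% of the whole list. For JUN it was 4 of 23 (17.4%, 6.98 to 37.1%), beside 21%, and for JUNB 2 of 19 (10.5%, 2.94 to 31.4%), beside 25.6%. All 10 shares without a partner were thus lower at TP63 than over the list, and for FOS, NFKB1 and STAT3 in transformed cells the interval also lay below the value of the list. The median summit of the locus also stood higher than that of its list, as given above. Among summits of transformed cells with a −log10 q-value of at least 10, the share was 62.5% for NFKB1 at TP63 and 63.6% over the list, so the lower NFKB1 share was not seen there. It was 12.5% beside 17.4% for FOS, 0 of 16 beside 24.2% for JUN, 6.67% beside 22.9% for JUNB and 14.3% beside 43.8% for STAT3.

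Distances between factors were taken over mutually nearest summits whose windows of 150 bp on each side overlap, so this choice limits how large they can be. In transformed cells the median distance between FOS and JUN summits was 13 bp over 22 pairs of summits, beside 18 bp over the genome, and between FOS and STAT3 it was 21 bp over 19 pairs, beside 25 bp. NFKB1 and STAT3 were 30 bp apart over 16 pairs, beside 30 bp. In non-transformed cells FOS and STAT3 were 38 bp apart over 17 pairs, beside 38 bp. Other pairs lay further from the genome. In non-transformed cells FOS and NFKB1 were 54.5 bp apart over 8 pairs, beside 36 bp, and JUN and STAT3 22 bp over 16 pairs, beside 36 bp. JUNB and NFKB1 in transformed cells were 17.5 bp apart over 16 pairs, beside 27 bp. These are medians of few pairs and were not tested.

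The whole window was dense in summits, and so was its neighbourhood. FOS had 10.0 summits per 100 kb in transformed cells, where the genome had 5.43, chromosome 3 had 5.81 and the flanks of the same width on both sides had 12.3. STAT3 had 5.71 in transformed cells, where the genome had 2.65 and the flanks 7.29. The largest excess over the genome was that of NFKB1 in non-transformed cells, 2.29 per 100 kb against 0.437, or 5.23-fold, and its flanks had 2.29 as well. In the other lists the excess over the genome was 1.70-fold to 3.85-fold. No list was denser at TP63 than in these flanks. Against narrower flanks, as wide together as the window, 4 lists were denser at TP63: NFKB1 in non-transformed cells by 1.6-fold and in transformed cells by 1.16-fold, STAT3 in non-transformed cells by 1.36-fold and JUN in non-transformed cells by 1.05-fold. Each of these values lay within the counting interval of the ratio to the wider flanks, so the order of window and flanks is not settled by these counts.

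**Figure D5:**
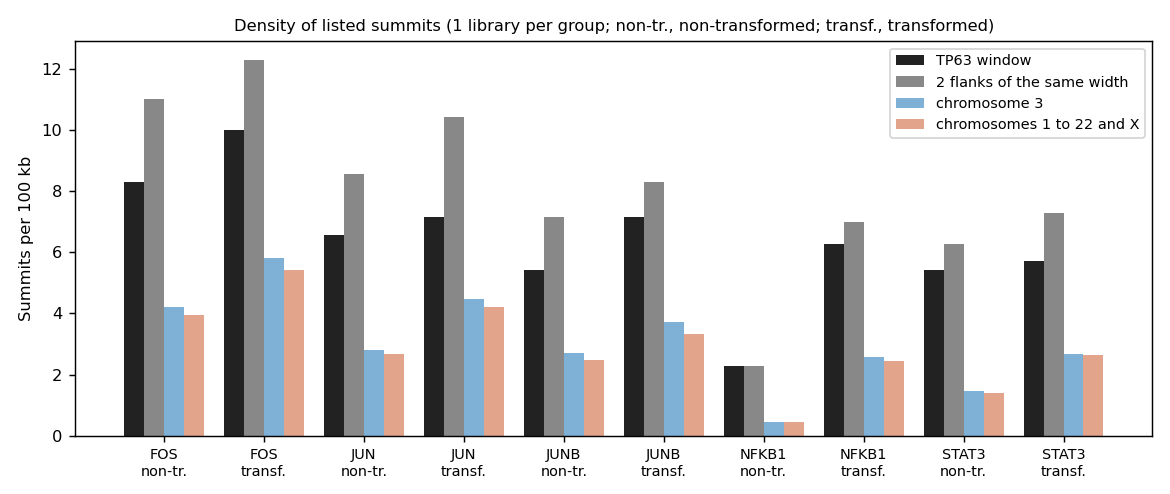
Bars give listed summits per 100 kb in the TP63 window, in the flanks of the same width on both sides, on chromosome 3 and on chromosomes 1 to 22 and X, for each of the 10 lists, with 1 library per group and no error bars. In every list the bar of the window is above those of chromosome 3 and the genome and level with or below that of the flanks.

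Depth and listing set what could be seen. The libraries hold from 4837474 to 22082403 filtered reads, and the lowest pileup listed in the window was between 5 and 11 reads, so a factor with no summit at a site either had a signal below what its list contains or lay under a peak with its summit elsewhere, which is not a measure of no binding. A change in the share of cells bound and a change in how fully each cell is bound cannot be told apart in these libraries, and the cause of a difference between the 2 libraries of a factor was not tested.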

How the data were processed

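ChIP-seq was analysed from 10 deposited peak lists, 1 for each of 5 factors in each of 2 states. Per the file headers, the authors ran MACS 2.0.10.20131216 on each library alone, without a control library, with reads of 36 bp, a q-value cutoff of 0.05 and duplicates at a position limited to 1. The submitters' processing notes name Bowtie, MACS2 and hg19. The deposited pileup is a signal, the extended reads over the summit, which the authors did not scale. As deposited, fold enrichment is a ratio between the pileup and the local background, and the deposited significance columns are −log10 of p-values and q-values. MACS extended reads to 114 to 150 bp.

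The TP63 window and the lists of factors were chosen with earlier results of these data known. Samples were grouped by their labels. Summits on chromosomes 1 to 22 and X were used, and the 648 on other chromosomes were left out. Windows of 150 bp on each side that overlapped by at least 1 bp were chained into sites, and summits of 2 lists whose windows overlapped were taken as partners. Pileups were expressed per 1000000 filtered reads (4837474 to 22082403 per library), ratios have exact conditional 95% intervals and shares have Wilson 95% intervals. Reads carry no molecular identifiers, so intervals cover counting error only and compare 2 libraries, not 2 conditions. The intervals are not adjusted for picking the highest and lowest ratios out of 81 site ratios. No test was run, since each group has 1 sample. Sites named are the 5 with the smallest sum of significance ranks in transformed cells, those nearest to the internal promoter and the upstream start, those in all 10 lists, those with the highest fold enrichment in each list, the 3 highest STAT3 and NFKB1 pileups listed in transformed cells only, and the highest and lowest ratio of each factor. The others named were chosen after their values were seen. Genes with a like pattern were not sought, since no gene table of hg19 was used here.

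The alternatives were a −log10 q-value of at least 10, at least 2 pileup reads per 1000000 filtered reads, the TP63 span alone, windows of 50 bp, whole peaks, fold enrichment in place of pileup, narrower flanks and, chosen after seeing the data, pileup divided by read extension. The code was tested on simulated data and used Python 3.11.15, numpy 2.4.6, pandas 2.3.3, scipy 1.17.1 and matplotlib 3.10.9.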

Additional observations from a re-analysis of the deposited data

How the results depend on the processing

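Counts changed with how weak a summit may be and with the region counted. With a −log10 q-value of at least 10, the sites fell from 42 to 27 and those of all 5 factors in transformed cells from 14 to 9. In non-transformed cells this left 19 FOS, 12 JUN, 10 JUNB, 3 NFKB1 and 7 STAT3 summits, and in transformed cells 16 JUN and 15 JUNB. With at least 2 pileup reads per 1000000, 13 FOS, 5 JUN, 7 JUNB, 3 NFKB1 and 5 STAT3 summits were left in non-transformed cells and 11, 10, 10, 8 and 13 in transformed cells. The TP63 span alone held 27 sites, with 18 FOS, 14 JUN, 9 JUNB, 3 NFKB1 and 10 STAT3 summits in non-transformed and 15 JUN, 16 JUNB, 13 NFKB1 and 13 STAT3 in transformed cells. Among summits of transformed cells with at least 2 reads per 1000000, 0 of 11 FOS, 0 of 10 JUN, 0 of 10 JUNB, 3 of 8 NFKB1 (37.5%) and 2 of 13 STAT3 summits (15.4%) had no partner in non-transformed cells, beside 1.77, 2.06, 4.39, 36.1 and 31.4% of the whole lists under the same filter. Among those with a −log10 q-value of at least 10, it was 3 of 24 for FOS (12.5%), 0 of 16 for JUN, 1 of 15 for JUNB (6.67%), 10 of 16 for NFKB1 (62.5%) and 2 of 14 for STAT3 (14.3%), beside 17.4, 24.2, 22.9, 63.6 and 43.8%. The median STAT3 ratio was 1.67 on the fold enrichment scale and 2.52 when pileups were divided by read extension, against 2. On the fold enrichment scale, 80 of 81 site ratios stayed within their interval, and 6 crossed 1: NFKB1 at sites 2, 8 and 13, to 1.06, 1.13 and 1.06, JUNB at sites 18 and 33, to 1.08 and 1.05, and STAT3 at site 20, to 0.90. None of the 6 had an interval away from 1.

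Windows of 50 bp and whole peaks left all 8 results tried within 1.5 times the value or within its interval, and so did narrower flanks for 10 densities, of which 3 crossed from below to above the flanks: JUN (1.05) and STAT3 (1.36) in non-transformed and NFKB1 (1.16) in transformed cells. No paired analysis was possible because each group has 1 sample and no result comes from a test, and no replicate could be left out. The depth of the NFKB1 library of non-transformed cells limits what its list can hold.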
